A study of Oryza sativa with 36 samples.

Results

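In rice florets of the cultivar IR64, 65 of 37862 gene IDs were both steady through 5 developing stages and far lower at maturity. Their mean share of the RNA stayed within a 2-fold range over the developing stages. In mature florets these genes stood at least 16-fold lower than at stage 5. They were chosen from the IR64 libraries alone, by counts scaled to each library's total (CPM, the count divided by the column sum and multiplied by 1e6) averaged over 3 replicates per stage. A chosen gene had at least 20 CPM at each of stages 1 to 5, a highest of these means no more than 2 times the lowest, and a mature mean of no more than 1/16 of the stage 5 mean. The IR64 values therefore define the set and are given as a description with no test, while the libraries of the second line, OsEPF1-oeS, took no part in the choice.

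The rice floret consists of a hull of lemma and palea around lodicules, stamens and a carpel, and its organs pass from cell division and patterning to expansion, wall thickening and pollen maturation before anthesis. SQUAMOSA promoter binding-like (SPL) factors are plant-specific regulators of inflorescence branching, phase change and organ size, and in rice several of them act on panicle and grain shape.

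The study compared IR64, the untransformed control, with OsEPF1-oeS, a transgenic IR64 line that overexpresses OsEPF1, a secreted peptide that restrains stomatal development. Poly(A) RNA of florets was sequenced at developing stages 1 to 5, taken some 75 to 85 days after sowing, and in mature florets taken at some 95 days, once panicles had headed but had not yet flowered, with 3 replicates in each of 12 groups. All plants had 12 h of light, at 30 °C in the day and 24 °C at night, and RNA of 3 plants was mixed for every developing replicate. Not given in the sources used here are the pooling of mature replicates, the promoter of the transgene and the number of transformation events behind the line.

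The 36 libraries had total counts of 22372257 to 55476576. The ID listed for OsEPF1, Os04g0637300, had 1111 to 3539 CPM in the 18 OsEPF1-oeS libraries and 0 to 2.73 CPM in the 18 IR64 libraries, as labelled. Of 31 floral organ identity and YABBY gene IDs, 21 had at least 20 CPM at every developing stage of IR64, so the tissue label is met. Of the developing libraries, IR64 stage 3 replicate 1 and OsEPF1-oeS stage 5 replicate 1 stood furthest from their groups, with mean Pearson correlations to the other replicates of 0.970 and 0.975 across genes, which are not independent.

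Few steady genes met the limit on the fall. In IR64, 8268 IDs had at least 20 CPM at all 5 developing stages, 6649 of these were steady, and the 65 were 0.978% of the steady ones. In OsEPF1-oeS the same conditions kept 8297, 6732 and 62 IDs, the last being 0.921% of the steady ones. For the 65 genes in IR64, the mean over the developing stages ran from 21.6 to 1106 CPM with a median of 87.8 CPM. Of the 65, 36 lay below 100 CPM. The highest IR64 stage mean exceeded the lowest 1.06-fold to 1.98-fold, with a median of 1.49. The IR64 mature mean had a median of 2.52 CPM, and the IR64 stage 5 mean exceeded it 16.2-fold to 422-fold with a median of 26.0.

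The genes were lowered at maturity rather than absent. In mature IR64 florets 10 of the 65 genes were under 1 CPM, 46 were between 1 and 10 CPM, and 9 were at 10 CPM or more. In mature OsEPF1-oeS florets the same 3 classes held 12, 44 and 9 genes. In bulk florets, fewer cells that transcribe a gene and less RNA of that gene per cell cannot be told apart.

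**Figure D1:**
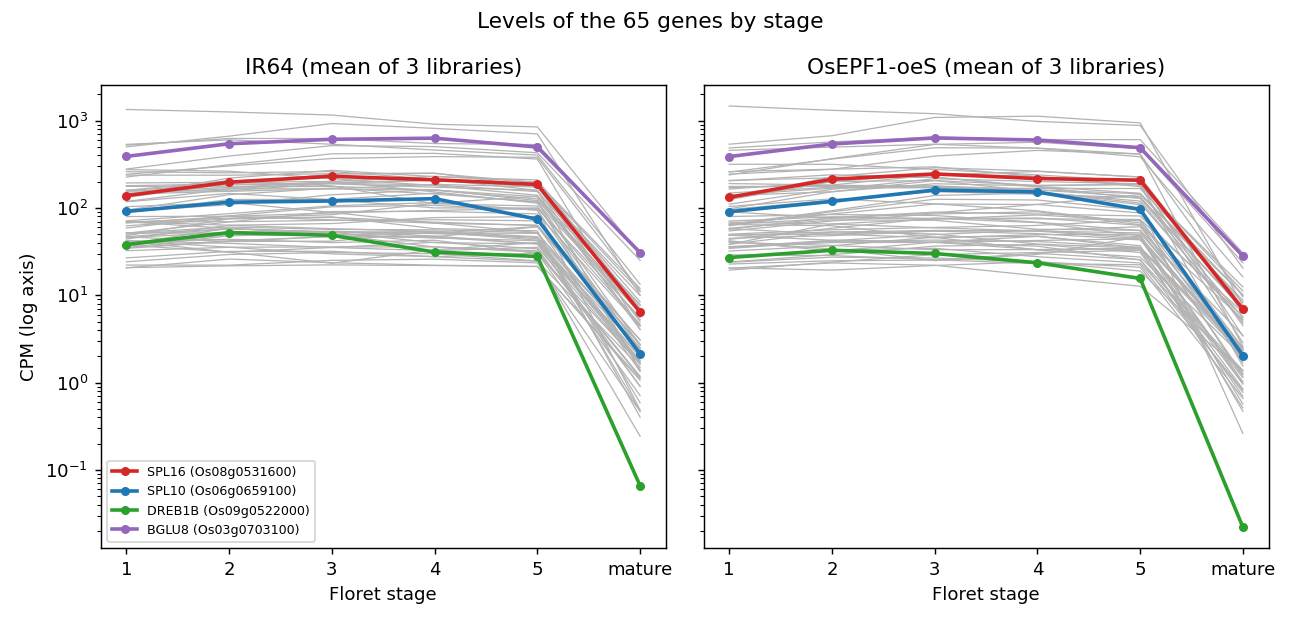
Mean CPM of 3 libraries (log axis) for each of the 65 genes across the 6 floret stages, in IR64 (left) and OsEPF1-oeS (right), with 4 named genes in colour. Through stages 1 to 5 each gene stays within a 2-fold range in IR64 and within 2.37-fold in OsEPF1-oeS. At maturity the lines drop, to a median of 2.52 CPM in IR64 and 2.38 CPM in OsEPF1-oeS.

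The steadiness was a shallow arch for most genes. In IR64, 52 of the 65 genes were highest at stage 2, 3 or 4, with 8 highest at stage 1 and 5 at stage 5, and 57 were lowest at stage 1 or stage 5. In OsEPF1-oeS, 51 were highest at stages 2 to 4 and 58 were lowest at stage 1 or 5. These counts rest on CPM from library totals. They were not made for all steady genes, so the arch is not shown to be particular to the 65. The stage of the highest mean was the same in both lines for 28 genes and at most 1 stage apart for 55.

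For each limit, the gene nearest on either side was looked up, so closeness to the limit is built into this choice. Os03g0196500 entered with a lowest developing mean of 20.7 CPM, and Os01g0133866, with 18.03 CPM, did not. Os11g0558300 entered with a ratio of highest to lowest of 1.98, while Os09g0363900 stayed out at 2.01. The beta-glucosidase gene BGLU8 entered with a 16.2-fold difference between stage 5 and maturity, and Os11g0547000 missed with 15.7-fold.

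In OsEPF1-oeS, whose libraries were not used for the choice, all 65 genes were again lower in mature florets than at stage 5. In edgeR's quasi-likelihood test over the 18 OsEPF1-oeS libraries, 65 of 65 passed a Benjamini-Hochberg adjusted p of 0.05 in that direction, against 33.6% of all 25795 genes tested. The log2 fold changes ran from -9.00 to -2.97 with a median of -4.55, where the median of all tested genes was 0.04, and the adjusted p-values in edgeR ran from 9.1e-15 to 9.0e-04. A fall of at least 4 on the log2 scale that also passed the test was found for 45 of the 65 genes and for 3.09% of all tested genes. Scaling by library totals in place of TMM moved the median of all tested genes to -0.15 and that of the 65 genes to -4.75.

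No library of any of the 65 genes broke this order. For each gene the highest of the 3 mature libraries lay below the lowest of the 15 developing libraries, in IR64 and in OsEPF1-oeS alike. In IR64 this follows largely from the choice of the genes on the same libraries. The share of all genes with such a gap was not computed, so the count describes the set only. The gap was narrowest for Os05g0545400, whose lowest developing library was 3.03 times its highest mature library in IR64 and 1.83 times in OsEPF1-oeS. Over the 65 genes the median of that ratio was 14.8 in IR64 and 16.3 in OsEPF1-oeS.

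How many of the 65 genes also met the same limits in OsEPF1-oeS depended on the scaling, with 46 on CPM and 32 on CPM with TMM-scaled library sizes. In OsEPF1-oeS the stage 5 mean exceeded the mature mean 9.26-fold to 706-fold with a median of 27.3, and the fold was larger than in IR64 for 34 genes and smaller for 31. Of the 65 genes, 61 kept at least 20 CPM at every developing stage, 55 stayed within the 2-fold range and 55 fell at least 16-fold. On CPM, all 3 conditions were met by 46 genes, which are 70.8% of the 65 and 74.2% of the 62 genes that the same conditions would choose from OsEPF1-oeS. Among the other 19, 10 missed the limit on steadiness with ratios of highest to lowest up to 2.37, 10 missed the limit on the fall with folds down to 9.26, and 4 missed the level of 20 CPM.

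**Figure D2:**
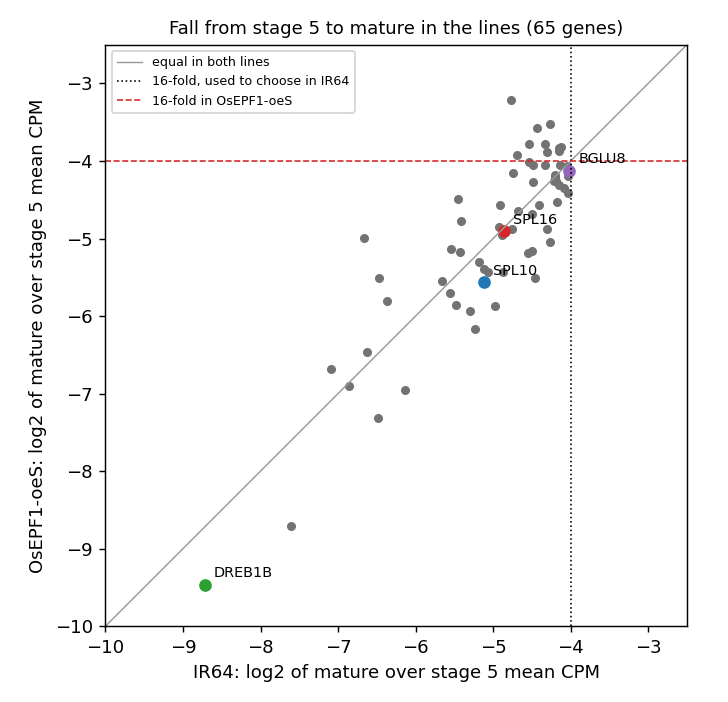
Each point is 1 of the 65 genes, with the log2 ratio of mature to stage 5 mean CPM in IR64 on the horizontal axis and in OsEPF1-oeS on the vertical axis. The dotted line marks the 16-fold limit used to choose in IR64, the dashed line marks the same limit in OsEPF1-oeS, and 55 of the 65 points lie at or below the dashed line.

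Summed over the 65 genes, the share of a library fell as sharply. The genes made up 0.865% to 1.18% of the counts in the 30 developing libraries and 0.0264% to 0.0379% in the 6 mature ones. In OsEPF1-oeS the 3 libraries of stage 5 held 0.870% to 1.02%, and the 3 mature libraries held 0.0264% to 0.0372%. The 2 ranges were far apart, and the lines overlapped at maturity, where IR64 held 0.0308% to 0.0379%.

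Summed levels of other gene lists also shifted between developing and mature libraries, some up and some down. The 9 IDs of a late pollen list summed to 0.117 to 3.85 CPM in the developing libraries, where 3 of the 9 were at 0 in every library, and to 2192 to 3645 CPM in the mature libraries. The 38 IDs of a photosynthesis and chlorophyll list summed to between 562 and 8009 CPM in developing libraries and between 22662 and 40043 CPM in mature ones, and 0 of them were at 0. Sums of the 28 tapetum, pollen wall and meiosis IDs were 705 to 4031 CPM in developing libraries and 192 to 313 CPM in mature ones. For the 30 IDs of cell division, DNA replication and histones they were 1070 to 8456 CPM and 461 to 701 CPM. The 31 floral organ identity and YABBY IDs overlapped, with 3590 to 5132 CPM and 4574 to 5593 CPM. The part of these shifts in the fall of the 65 genes was not tested.

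**Figure D3:**
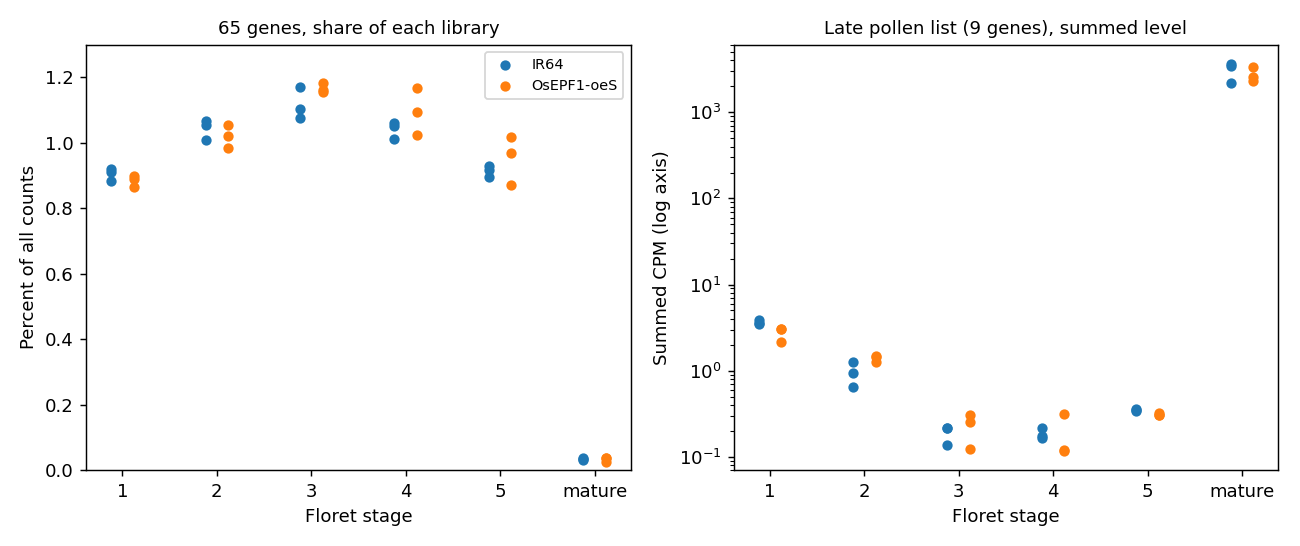
Left, the summed share of counts (percent) of the 65 genes in each of the 36 libraries by stage and line. Right, the summed CPM of the 9 late pollen IDs in the same libraries on a log axis. Developing libraries lie between 0.865% and 1.18% on the left, where mature libraries lie below 0.04%, while the late pollen sum is highest at maturity.

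The files pair no ID with a gene name, and 4 of the 65 genes could be named through checked symbols: SPL16, SPL10, DREB1B and BGLU8. SPL16 stood in a list of spikelet hull and grain size genes, whereas the other 3 names come from family lists written after the 65 genes were known. The other 61 genes are described by ID.

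SPL16 (Os08g0531600, chromosome 8), an SPL factor known in rice for promoting cell division in the spikelet hull and wider grains, followed the same course in both lines. In OsEPF1-oeS its 3 libraries had 134, 129 and 135 CPM at stage 1, 218, 215 and 208 CPM at stage 2, and 227, 251 and 259 CPM at stage 3. They had 195, 238 and 219 CPM at stage 4, 197, 197 and 232 CPM at stage 5, and 8.61, 5.79 and 6.47 CPM at maturity. Every stage 2 library was above every stage 1 library, and every mature library was far below both. The rise from stage 1 to 2 was 0.74 ± 0.12 (SE) on the log2 scale with an adjusted p of 6.5e-04 in edgeR, and the fall from stage 5 to maturity was -4.71 ± 0.14 with an adjusted p of 8.5e-14. Without OsEPF1-oeS replicate 2 the rise was 0.72 and its adjusted p in edgeR 0.0504.

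In IR64, SPL16 had 142, 143 and 130.3 CPM at stage 1 and reached 220.3, 229 and 244 CPM at stage 3. At stage 5 it had 164, 203 and 192 CPM, and at maturity 7.17, 6.70 and 5.37 CPM. The libraries of the lines overlapped at maturity, and the edgeR difference between the lines there was 0.01 ± 0.12 on the log2 scale.

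SPL10 (Os06g0659100, chromosome 6), a second factor of the same family, was less level than SPL16 late in development. In OsEPF1-oeS it had 93.8, 89.6 and 88.8 CPM at stage 1, 117, 123 and 118 CPM at stage 2, and 162, 159 and 161 CPM at stage 3. It then had 153, 161 and 145 CPM at stage 4, 83.6, 102 and 104 CPM at stage 5, and 2.56, 1.77 and 1.79 CPM at maturity. Stages 3 and 4 were thus the highest, with no overlap between their libraries and those of stage 2 or stage 5.

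The SPL10 steps in OsEPF1-oeS passed the edgeR test 4 times. It rose by 0.45 ± 0.11 on the log2 scale from stage 1 to 2 (adjusted p 0.013) and by 0.50 ± 0.11 from stage 2 to 3 (adjusted p 0.0027). It fell by 0.60 ± 0.11 from stage 4 to 5 (adjusted p 0.0026 in edgeR), the 1 fall among the 65 genes that passed in this step, and it fell by 5.36 ± 0.14 to maturity (adjusted p 3.0e-14). Each of the 3 developing steps was lost without OsEPF1-oeS replicate 2 or replicate 3. The adjusted p-values in edgeR were then 0.228 and 0.173 for the first step, 0.0636 and 0.0617 for the second, and 0.126 and 0.0520 for the fall.

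The other SPL genes changed in both directions. Of 15 SPL symbols that passed the name check, 14 were tested, and from stage 5 to maturity in OsEPF1-oeS 9 were lower, 2 of them the chosen genes, 2 were higher and 3 did not pass in edgeR. The shares of 64.3% lower and 14.3% higher stand beside 33.6% and 36.6% of all tested genes. The lower share counts the 2 genes chosen for their fall in IR64, so it is raised by the choice, and 7 of the lower genes were not chosen. The family's median log2 fold change was -0.63. Besides the 2 chosen genes, SPL5 fell by 5.05 ± 0.19 on the log2 scale, but with stage means of 6.52 to 11.5 CPM in OsEPF1-oeS it was below the level limit. SPL14, known in rice for plant architecture and panicle branching, fell by 1.85 ± 0.10, and SPL15, the most abundant at 403 CPM at stage 5, fell by 0.26 ± 0.09. SPL4 rose by 1.35 ± 0.13 and SPL1 by 0.61 ± 0.11, and each of these 5 changes passed in edgeR.

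DREB1B (Os09g0522000, chromosome 9), an AP2/ERF factor of the CBF/DREB1 family known from cold and drought responses, fell the most of the 65 genes. In OsEPF1-oeS it had 24.6, 11.6 and 10.6 CPM at stage 5 and 0, 0 and 0.0664 CPM at maturity. That is 1193 counts over the 3 stage 5 libraries and 2 counts over the 3 mature ones, a ratio of 694 with an exact 95% interval of 192 to 5735 that covers counting error only. The edgeR log2 fold change was -9.00 ± 0.69 with an adjusted p of 1.1e-08. In IR64 it had 30.8, 46.4 and 6.51 CPM at stage 5 and 0.0432, 0.0447 and 0.110 CPM at maturity.

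DREB1B met the steadiness limit on its IR64 stage means, yet its libraries within a stage were far apart. In IR64 it had 79.2, 42.4 and 24.5 CPM in the 3 libraries of stage 3 and 44.3, 38.6 and 10.95 CPM in those of stage 4. At stage 1 of OsEPF1-oeS it had 37.4, 27.6 and 16.3 CPM. Libraries of neighbouring stages overlapped in each line, and in OsEPF1-oeS none of the 4 developing steps passed the edgeR test, with adjusted p-values of 0.42 to 0.95. In OsEPF1-oeS its means at stages 1 to 4 were 23.6 to 32.8 CPM, and only the stage 5 mean, 15.6 ± 7.82 CPM (SD, n = 3), lay below 20 CPM, which also put the range of its stage means over the 2-fold limit.

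Other DREB1 genes were lower at maturity as well. Of 8 DREB1 symbols that passed the name check, 7 were tested, and 6 of these, DREB1B included, were lower in mature than in stage 5 florets of OsEPF1-oeS, against 33.6% of all tested genes. DREB1B was chosen for its fall in IR64, so this share is raised by the choice, and 5 of the lower genes were not chosen. DREB1F, at 9 counts over the 3 stage 5 libraries, did not pass (adjusted p 0.0503 in edgeR), and DREB1I was too low to be tested. The libraries of a stage were far apart for other DREB1 genes too. At stage 5 of IR64, DREB1C had 13.6, 15.3 and 0.672 CPM, DREB1E 8.96, 9.55 and 0.882 CPM, and DREB1G 12.9, 17.1 and 0.588 CPM. DREB1H (Os09g0522100) had 21.7, 30.1 and 2.65 CPM at stage 5 of IR64 and DREB1A (Os09g0522200) had 21.6, 32.6 and 2.77 CPM, so both were lowest in replicate 3, as DREB1B was. At stage 4 of IR64, DREB1H had 29.7, 25.6 and 5.80 CPM and DREB1A 22.1, 24.6 and 5.18 CPM, with replicate 3 again the lowest.

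DREB1G and DREB1E had 0 counts in all 3 mature libraries of OsEPF1-oeS. Against a floor of 3 counts summed over the group, DREB1G was at least 144-fold and DREB1E at least 91.5-fold higher at stage 5. The IDs of DREB1B, DREB1H and DREB1A follow each other in number, and without a stated handling of reads that map to several places, counts shared between such related genes remain uncertain.

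BGLU8 (Os03g0703100, chromosome 3), a beta-glucosidase of the glycosyl hydrolase family that releases glucose from glycosides, was among the 8 genes with a developing mean of 300 CPM or more in each line. In OsEPF1-oeS it had 398, 382 and 387 CPM at stage 1, 576, 553 and 495 CPM at stage 2, and 497, 455 and 521 CPM at stage 5. At maturity it had 26.6, 23.2 and 34.7 CPM, against 39.3, 34.3 and 18.9 CPM in IR64. The mature libraries of the lines overlapped, and all lay well below the developing ones. It rose by 0.53 ± 0.11 on the log2 scale from stage 1 to 2 (adjusted p 0.0061 in edgeR) and fell by 3.92 ± 0.13 to maturity (adjusted p 2.2e-13). The rise was lost without OsEPF1-oeS replicate 1 or replicate 2, with adjusted p-values of 0.0674 and 0.158.

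The beta-glucosidase genes changed in both directions. Of 13 checked symbols 11 were tested, and from stage 5 to maturity in OsEPF1-oeS 4 were lower in edgeR, BGLU8 among them, and 7 higher. The share of 36.4% lower, which counts the chosen BGLU8, is near the 33.6% of all tested genes, and the 63.6% higher stand beside 36.6%. BGLU7 (Os03g0703000), whose ID number lies just below that of BGLU8, was the most abundant at 1255 CPM at stage 5. It fell by 2.09 ± 0.10 on the log2 scale to 256 CPM. BGLU1 fell by 4.64 ± 0.23, but in IR64 it climbed from 15.2 CPM at stage 1 to 71.9 CPM at stage 5 and so was not steady. BGLU22 rose by 4.76 ± 0.44 and BGLU12 by 2.56 ± 0.16, and each of these 4 changes passed in edgeR.

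**Figure D4:**
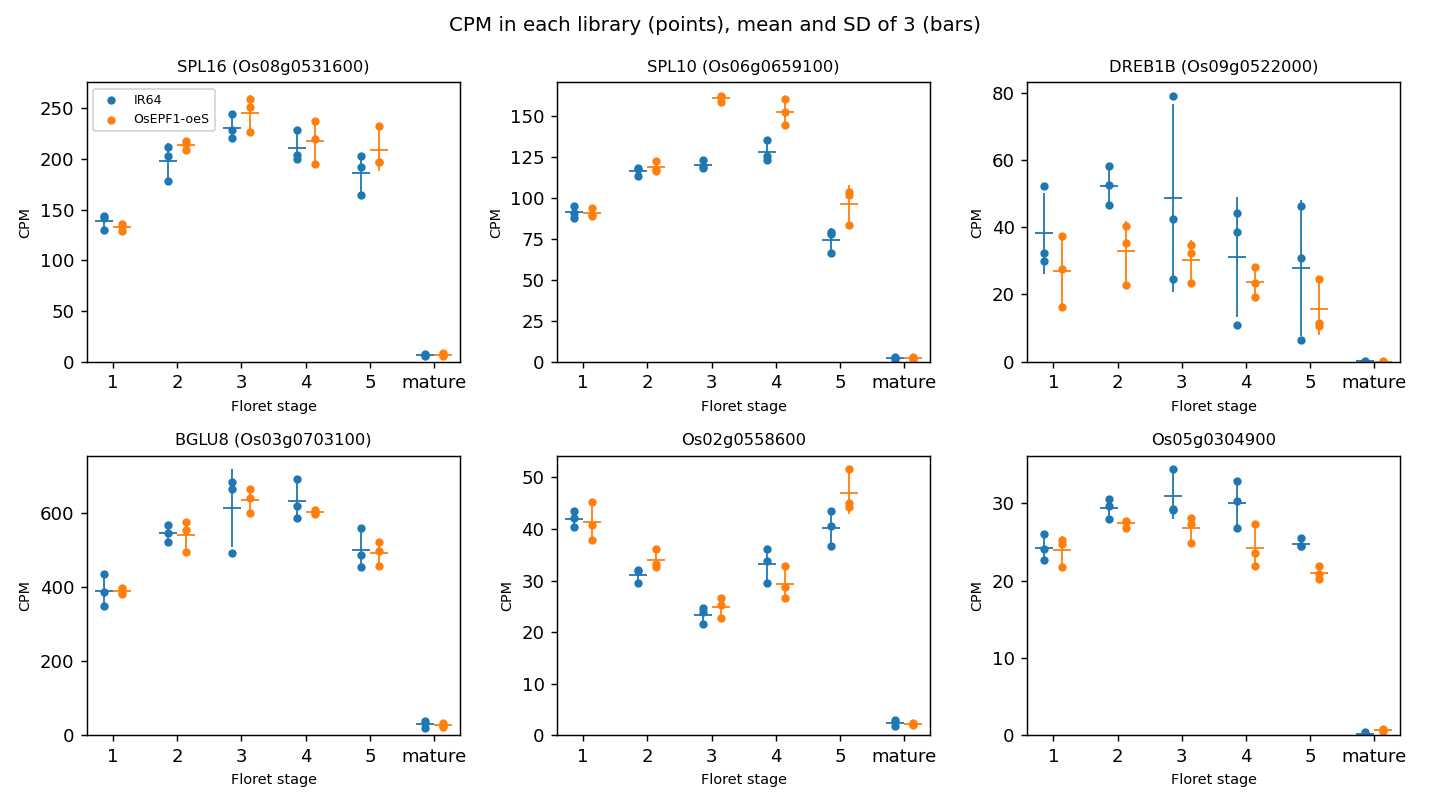
CPM in each library (points) with the mean and SD of 3 (bars) for SPL16, SPL10, DREB1B, BGLU8 and 2 genes known by ID, in IR64 and OsEPF1-oeS at each stage. Libraries of a stage lie close together for SPL16 and SPL10 and far apart for DREB1B, where stage 5 of IR64 spans 6.51 to 46.4 CPM.

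The most abundant of the 65 genes were Os04g0631200 and Os03g0167000. In OsEPF1-oeS, Os04g0631200 had 1391, 1572 and 1460.2 CPM at stage 1 and 679.7, 1055 and 912 CPM at stage 5, and 27.7, 10.2 and 23.6 CPM at maturity. It declined gently where most of the set arched, although no developing step passed in edgeR, and its fall to maturity was -5.25 ± 0.31 on the log2 scale. Os03g0167000 had 652, 647 and 721 CPM at stage 2, 1020.2, 1162 and 1089.7 CPM at stage 3, and 9.16, 4.43 and 9.36 CPM at maturity. Its stage 2 and stage 3 libraries did not overlap, and it fell by 6.76 ± 0.25 to maturity.

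Next to DREB1B, Os12g0604500 had the largest fall in OsEPF1-oeS. It had 81.1, 133 and 114 CPM at stage 5 and 0.339, 0.148 and 0.299 CPM at maturity, a log2 fold change of -8.48 ± 0.33 with an adjusted p of 2.1e-12 in edgeR. In IR64 it had 86.8, 101 and 97.3 CPM at stage 5 and 0.562, 0.313 and 0.589 CPM at maturity. It was thus below 1 CPM in all 6 mature libraries.

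The smallest falls were those of Os05g0545400 and Os11g0499600. Os05g0545400 had 26.1, 5.41 and 6.53 CPM at stage 5 and 0.679, 0.480 and 2.95 CPM at maturity in OsEPF1-oeS, a log2 fold change of -2.97 ± 0.65 with an adjusted p of 9.0e-04 in edgeR. A library of each group stood apart, and the value was -1.59 without replicate 1 (adjusted p 0.0373) and -4.51 without replicate 3 (adjusted p 8.1e-04). Without only the stage 5 library of replicate 1 it was -1.96 (adjusted p 0.0058).

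Like DREB1B, Os05g0545400 was uneven in IR64, with 44.3, 52.3 and 10.8 CPM at stage 4 and 39.8, 52.2 and 5.38 CPM at stage 5. Replicate 3 was the lowest library for both genes at both stages. Other genes of the 65, picked after their values were seen, were also far lower in replicate 3 at stage 5 of IR64. Os01g0384800 had 2440, 2661 and 238 counts there, Os01g0313300 had 1942, 2339 and 296, and Os03g0678800 had 3504, 4407 and 842. These 3 libraries had 23806729 to 28471212 counts in total. Over the 65 genes, the SD at stage 5 of IR64 was 0.332% to 74.7% of the mean, with a median of 10.7%. Os11g0499600 was even, with 70.4, 70.8 and 80.6 CPM at stage 5 and 8.95, 4.50 and 5.77 CPM at maturity in OsEPF1-oeS. Its fall was 3.33 ± 0.16 on the log2 scale, passed in edgeR, and came to 11.5-fold against 19.2-fold in IR64.

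The course within development was tested in OsEPF1-oeS step by step, and nearly all calls were rises before or at stage 3. From stage 1 to 2, 11 of the 65 genes passed in edgeR, all higher, against 6.51% of all tested genes called higher and 8.35% called in either direction. From stage 2 to 3, 10 were higher and 1 lower, against 13% called higher and 9.27% called lower among all tested genes, so the share of 15.4% higher was near the background. The medians of the 65 genes were 0.27 and 0.16 on the log2 scale for these steps. Without OsEPF1-oeS replicate 2 the counts were 4 and 1, where 2.00% and 7.57% of all tested genes were called in either direction, and without replicate 3 they were 7 and 1, where 2.97% and 11.5% were.

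The later steps held few calls. From stage 3 to 4, 0 of the 65 genes passed in edgeR, while 5 had an unadjusted p under 0.05, DESeq2 called 2, and 10.7% of all tested genes were called. From stage 4 to 5, 1 gene rose and 1 fell, against 3.46% higher and 2.62% lower among all tested genes, and 49 of the 65 log2 fold changes were below 0 with a median of -0.18. Without OsEPF1-oeS replicate 2 neither of these was called, with 0.375% of all tested genes called, and without replicate 3 the count was 1, with 2.12% called. In all, 49 genes were called in none of the 4 developing steps, and 16 in at least 1. Genes were chosen in IR64 for a narrow range over these stages, so a small number of calls in OsEPF1-oeS describes the set and is not a separate result.

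The largest rises from stage 1 to 2 were those of Os10g0508000 and Os01g0863500. Os10g0508000 had 144, 128 and 118 CPM at stage 1 and 219.8, 232 and 234 CPM at stage 2, a rise of 0.87 ± 0.13 on the log2 scale with an adjusted p of 3.4e-04 in edgeR. Os01g0863500 had 44.6, 36.7 and 33.7 CPM at stage 1 and 58.4, 63.1 and 75.8 CPM at stage 2, a rise of 0.83 ± 0.23 with an adjusted p of 0.035. In each the libraries of the stages did not overlap, and the second call was lost without OsEPF1-oeS replicate 3 (0.64, adjusted p 0.403 in edgeR).

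From stage 2 to 3 the largest rises were those of Os03g0167000 and Os12g0604500. Os03g0167000 rose by 0.76 ± 0.19 on the log2 scale (adjusted p 0.0084 in edgeR). Os12g0604500 had 81.7, 86.0 and 112 CPM at stage 2 and 141, 151 and 126 CPM at stage 3, a rise of 0.64 ± 0.20 (adjusted p 0.029). The libraries of the stages did not overlap for either gene. Both calls were lost without OsEPF1-oeS replicate 2, with adjusted p-values of 0.0546 and 0.260, and without replicate 3, with 0.0809 and 0.0671.

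Os02g0558600 ran against the arch. In OsEPF1-oeS it had 33.3, 32.6 and 36.1 CPM at stage 2, 26.7, 22.8 and 25.4 CPM at stage 3, 32.9, 26.5 and 28.7 CPM at stage 4, and 51.6, 44.3 and 45.0 CPM at stage 5. It was lowest at stage 3 and highest at stage 5, and in IR64 it was also lowest at stage 3, with 21.5, 24.7 and 23.8 CPM. In OsEPF1-oeS it fell by 0.38 ± 0.09 on the log2 scale from stage 2 to 3 (adjusted p 0.0063 in edgeR) and rose by 0.73 ± 0.09 from stage 4 to 5 (adjusted p 1.6e-04). The fall was lost without OsEPF1-oeS replicate 2 (adjusted p 0.136) or replicate 3 (0.0908), and the rise without replicate 2 (0.0590).

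Few of the 65 genes passed a test of the difference between the lines. In edgeR over all 36 libraries, 0 of the 65 differed at stage 1, where 0.834% of 26726 tested genes did, 0 at stage 2 (1.18%) and 0 at stage 4 (2.38%). At these stages 2, 4 and 7 of the 65 had an unadjusted p under 0.05, and DESeq2 called 0, 0 and 3. At stage 3, 1 gene differed (1.69% of all tested genes), at stage 5, 2 genes (2.45%), and at maturity 1 gene (2.02%), all higher in OsEPF1-oeS. The IR64 libraries of these comparisons are those that chose the genes, and the shares lie near those of all tested genes.

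The median difference of the 65 genes, OsEPF1-oeS minus IR64, stayed between -0.10 and 0.06 on the log2 scale at the 6 stages. At maturity 18 of the 65 had an unadjusted p under 0.05, of which 15 were lower in OsEPF1-oeS, and 1 passed the adjustment. Without OsEPF1-oeS replicate 1, 7 of the 65 passed at maturity, 6 of them lower in OsEPF1-oeS, where 2.92% of all tested genes were called. In the same fit 3 passed at stage 5 and 3 at stage 4, all higher in OsEPF1-oeS, where 3.92% and 3.20% of all tested genes were called. The interaction of line and developing stage passed for 0 of the 65 genes in edgeR, against 1.19% of all tested genes, and the lowest adjusted p among them was 0.206, for SPL10.

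SPL10 was the gene that differed at more than 1 stage. At stage 3 it had 119.6, 118 and 123 CPM in IR64 against 162, 159 and 161 CPM in OsEPF1-oeS, a difference of 0.43 ± 0.10 on the log2 scale with an adjusted p of 0.011 in edgeR. At stage 5 it had 66.3, 78.0 and 79.4 CPM in IR64 against 83.6, 102 and 104 CPM, a difference of 0.39 ± 0.10 with an adjusted p of 0.024. The libraries of the lines did not overlap at either stage. At stages 1 and 2 the differences were -0.02 ± 0.10 and 0.02 ± 0.10.

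Both SPL10 calls were lost in 5 of 13 alternatives, each of them a smaller set of libraries, and held in the other 8. With the 6 libraries of the stage alone the adjusted p-values in edgeR were 0.128 at stage 3 and 0.327 at stage 5. At stage 3 the call was lost without IR64 replicate 1 (0.0565) or 2 (0.0809) and without OsEPF1-oeS replicate 2 (0.118) or 3 (0.0789). At stage 5 the same 4 gave 0.260, 0.0573, 0.262 and 0.229, while both calls held without IR64 replicate 3 (0.0452 at stage 3 and 0.0408 at stage 5), without OsEPF1-oeS replicate 1 (0.0099 and 0.0013) and without the 2 developing libraries that stood furthest from their groups (0.011 and 0.0013). The log2 difference over all alternatives was 0.40 to 0.45 at stage 3 and 0.32 to 0.51 at stage 5.

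Os04g0553500 was higher in OsEPF1-oeS at stage 5. It had 141, 139.6 and 140.0 CPM in IR64 against 176, 218 and 208 CPM in OsEPF1-oeS, a difference of 0.54 ± 0.15 on the log2 scale with an adjusted p of 0.042 in edgeR. The libraries did not overlap there, and at stages 1 to 4 the difference was 0.20 to 0.43 with no call. The call was lost under library totals (adjusted p 0.0544) and with the 6 libraries of the stage (0.115). It was also lost without IR64 replicate 1 (0.176), 2 (0.191) or 3 (0.132) and without OsEPF1-oeS replicate 2 (0.245) or 3 (0.212).

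Os05g0304900 was the call in mature florets. It had 0.173, 0.447 and 0.110 CPM in IR64 against 0.864, 0.516 and 0.597 CPM in OsEPF1-oeS, a difference of 1.37 ± 0.27 on the log2 scale with an adjusted p of 0.015 in edgeR. Both levels were below 1 CPM, while at stage 5 it had 24.4, 25.5 and 24.4 CPM in IR64 and 20.8, 20.2 and 21.9 CPM in OsEPF1-oeS. The mature libraries did not overlap. The call was lost with the 6 libraries of the stage (adjusted p 0.682) and without IR64 replicate 1 (0.0843), IR64 replicate 3 (0.213) or OsEPF1-oeS replicate 1 (0.112).

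**Figure D5:**
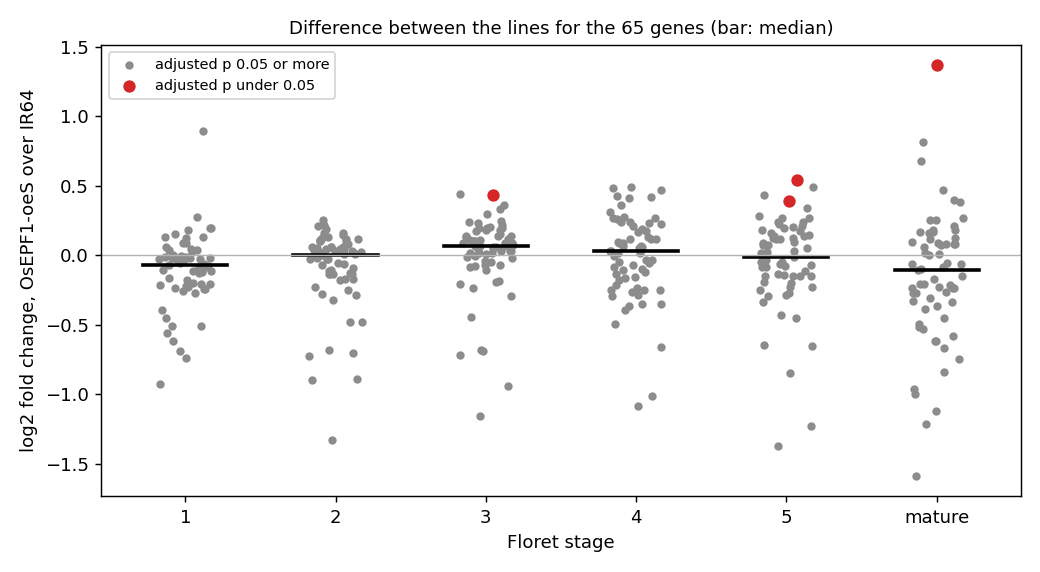
The log2 fold change of OsEPF1-oeS over IR64 for each of the 65 genes (points) at each of the 6 stages, with the median as a bar and genes with an edgeR adjusted p under 0.05 in red. Medians stay between -0.10 and 0.06, and the 4 red points, 1 at stage 3, 2 at stage 5 and 1 at maturity, all lie above 0.

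Lists of genes with known roles in florets were set against the same limits, which 0.978% of all steady IDs met. Of 30 IDs for cell division, DNA replication and histones, 21 had at least 20 CPM at every developing stage of IR64, but 2 of these were steady and 0 fell 16-fold. Of 31 floral organ identity and YABBY IDs, 16 were steady at that level and 0 of these fell 16-fold. The 9 circadian clock IDs held 7 steady genes at that level, and the 14 tubulin and actin IDs held 8, and none of these steady genes fell 16-fold. Of 41 meristem, spikelet hull and grain size IDs, 10 were steady and 1, SPL16, was among the 65. For lists with so few steady genes, counts of 0 or 1 are near that background and are not a result about the 65 genes.

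The 65 genes were spread over all 12 chromosomes, as read from their IDs. Chromosome 1 held 12 of them, 18.5% against 13.9% of all IDs, and chromosomes 3 and 4 held 9 each. In 4 pairs the genes lay within 10 rows of each other in the deposited table, and in 2 of these pairs they were in adjacent rows.

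The adjacent genes Os06g0207966 and Os06g0208100, singled out after their values were seen, had the same highest and the same lowest replicate in 9 of the 12 groups, and not in the other 3. At stage 4 of OsEPF1-oeS they had 71.7, 66.6 and 33.1 CPM and 46.6, 36.9 and 16.94 CPM, with replicate 3 the lowest for each. At stage 5 of IR64 they had 68.1, 54.5 and 91.4 CPM and 41.0, 25.4 and 62.0 CPM, with replicate 3 the highest for each. Os06g0207966 had the flattest IR64 course of the 65 genes, with stage means within 1.06-fold. The other adjacent pair, Os01g0133100 and Os01g0133200, had 24.99, 53.3 and 42.3 CPM and 41.5, 31.2 and 33.1 CPM at stage 3 of IR64, so replicate 1 was the lowest for the first and the highest for the second. Without a stated strand setting of the counting, it cannot be told whether reads of neighbours that overlap or lie antisense were shared.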

How the data were processed

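The authors deposited a table of whole-number read counts per gene ID, not normalized, for 36 floret libraries in 12 groups of 3. Per the submitters' processing notes the tools were Trimmomatic 0.38, HISAT2 2.1.0, featureCounts and Subread 2.0.0, with the IRGSP-1.0 build. Their settings, such as strand, are not stated in these sources. All 36 per-sample columns were used, and 0 were left aside. Total counts were 22372257 to 55476576 per library, and intervals cover counting error only.

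CPM was computed on column sums. Tests used edgeR 4.0.16 in R 4.3.3 with filterByExpr, TMM scaling, a group-means model and the robust quasi-likelihood test, fitted to all genes of the 18 OsEPF1-oeS libraries for the steps between stages and of all 36 libraries for the lines, with Benjamini-Hochberg adjustment over all genes tested. Log2 fold changes come from these fits and carry their standard error, while folds without log2 are ratios of mean CPM. The fits were tested on simulated data with known changes. Replicates are separate samples in the labels. DESeq2 1.42.0, other scalings, no filter, other sets of libraries and the replicate number as a block were alternatives. Replicates of a group always differed by more than counting noise. Replicate numbers were not used as pairs.

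Gene names rest on 16 lists of 346 IDs written from general knowledge of rice genes. Of these, 345 are in the table, 225 have a symbol in the RefSeq table (assembly ASM3414082v1, used for names only), and for 211 of those the order along the chromosome matched, with relative ranks no more than 0.02 apart, while the other 14 did not match and are not named. The IDs of OsEPF1 and of some late pollen and photosynthesis genes could not be checked in this way. The 65 genes, the lists and the tests were chosen with earlier results of these data known, and the SPL, DREB1 and beta-glucosidase family lists were written once the 65 genes were known. Genes were named if their symbol passed the check. By ID, the text names the 2 with the highest OsEPF1-oeS developing mean, the 2 largest and 2 smallest falls to maturity, the 2 largest called changes per direction in each step and each comparison of the lines (there with libraries that did not overlap), and the genes nearest to each limit. Any other ID is said to be chosen after its values were seen. Sequences were not used here.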

Additional observations from a re-analysis of the deposited data

How the results depend on the processing

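All 65 genes stayed lower in mature than in stage 5 OsEPF1-oeS florets under each of the 10 alternatives run, from RLE scaling to leaving out any replicate number. The developing steps gave fewer and less stable calls. From stage 1 to 2 the main count of 11 became 4 to 9 when 1 replicate number was left out, and from stage 2 to 3 it became 1 to 12. From stage 3 to 4 the main 0 became 1 under RLE scaling, 2 under DESeq2 and 1 in a fit on all 36 libraries, and it was 0 in each leave-one-out fit. From stage 4 to 5 the main 2 became 4 under library totals, 5 under DESeq2 and 0 to 2 without 1 replicate. Between the lines, with the 6 libraries of a stage alone, the count was 1 at stage 1 and 0 at stages 3 and 5 and at maturity. DESeq2 gave 3 at stage 4 and 5 at maturity, library totals gave 1 at stage 5 and 2 at maturity, and leaving out the 2 developing libraries of lowest replicate correlation, an alternative chosen after seeing the data, gave 2 at maturity. Leaving out 1 replicate number moved stage 2 to between 0 and 1, stage 3 to between 0 and 2, stages 4 and 5 each to between 0 and 3, and maturity to between 0 and 7, and the 7 without OsEPF1-oeS replicate 1 did not include the gene of the main fit. The cause was not tested. With the replicate block, the 4 developing steps gave 13, 11, 0 and 3 calls, the step to maturity 65, and the lines 0, 0, 1, 0, 2 and 1, where 9.42%, 23.8%, 12.4%, 7.16% and 71.2% of all tested genes were called in the steps and 0.965% to 2.84% between the lines. Deviations from the group means had correlations of -0.66 to 0.71 between same-numbered libraries (median 0.05, 198 pairs). Between libraries of other numbers they were -0.72 to 0.78 (median -0.02, 396 pairs). Correlations over 0.1 were found in 87 of the former pairs and 125 of the latter. The ranges overlap widely, and whether the numbers pair some of the samples is not settled by these values. Choosing on TMM-scaled CPM would take 49 genes, of which 43 are among the 65, and leaving out 1 IR64 replicate number would take 59 to 71. In OsEPF1-oeS, 32 of the 65 met all 3 conditions on TMM-scaled CPM and 43 to 45 without 1 replicate number. Of the log2 fold changes of single named genes, 1979 alternatives kept their side of the threshold, 24 newly passed it, 43 fell short of it and 0 changed direction among called values. Mature levels of a few counts, as for DREB1B, limit how closely its fall can be sized.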
